A study of Mus musculus with 52 samples.

Results

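The 10 genes described here, from the complement cascade and from antigen presentation, were followed through 52 poly-A RNA-seq libraries of mouse brain: the 3 chains of C1q (C1qa, C1qb and C1qc), C3, the class I genes B2m and H2-D1, and the class II genes Cd74, H2-Aa, H2-Ab1 and H2-Eb1. The 10 were taken by name from the 48526 gene IDs of each deposited table. The study compared miR-146a KO mice with WT mice, at E14 in cortex (5 KO and 4 WT libraries), at P30 in amygdala, frontal cortex and hippocampus (4 KO and 4 WT libraries in each) and at P60 in the same regions (4 KO and 3 WT libraries in amygdala, 4 and 3 in frontal cortex, 2 and 3 in hippocampus). The sources used here give neither the strain nor how the KO allele was made, and name no treatment; the series text has the animals born to different mothers and calls the later age P6 and the cortex sensory, where the sample labels say P60 and frontal cortex. The sample labels were followed, and each library was counted as 1 replicate.

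Complement is a set of blood and tissue proteins that tag cells, debris and, in the developing brain, synapses. C1q, made in brain mainly by microglia, starts the classical pathway, and C3 is the central component that all pathways cleave. Class I molecules, of which B2m is the shared light chain and H2-D1 a heavy chain, show peptides from inside the cell. Class II molecules, built from alpha and beta chains (H2-Aa with H2-Ab1, and H2-Eb1) and loaded with the help of the invariant chain Cd74, show peptides taken up from outside. In the healthy brain class II is known mostly from macrophages and dendritic cells of the meninges, perivascular spaces and choroid plexus. miR-146a is a microRNA induced by NF-kB that represses adaptors of the same signalling route.

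The microRNA that the KO removes and its close relative share their seed, which is shown because it sets which transcripts could be direct targets. Both are printed 5′ to 3′ from RefSeq (GRCm38.p6) with the seed (bases 2 to 8) in capitals.
miR-146a-5p (chr11:43374435-43374456, - strand): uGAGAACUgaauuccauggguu
miR-146b-5p (chr19:46342790-46342811, + strand): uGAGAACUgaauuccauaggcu
The reverse complement of that seed, AGTTCTC, was searched on the sense strand of the 3′ UTR of the longest protein-coding transcript of each gene (GENCODE M21). It was found in 1 of the 10 members, H2-D1, at base 72 of a UTR of 629 bases. Over all genes with such a UTR it was found in 2312 of 20981 (11.0%). The stretch around it is printed with the match in capitals.
H2-D1 3′ UTR: cagagccctcAGTTCTCtttacacaac
A match of 7 letters is a description of the sequence and not a site shown to be used.

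Promoters were at hand for 7 of the 10 members in RefSeq, each a window from 250 bases before to 50 bases after the start of the gene. The promoters of 5 members are shown as examples from the pairs compared below, none of which passed adjustment. They are a pair of neighbouring C1q genes, the light and a heavy chain of class I, and a class II chain. The windows of C3 and H2-Eb1 were searched too and are not printed. Capitals mark matches, on either strand, to the Y box (CTGATTGG), the NF-kB consensus, a pair of interferon response half-sites, the PU.1 core (GAGGAA) and the TATA box (TATAAA), and adjoining matches to the NF-kB consensus overlap.
C1qb (chr4:136886151-136886450, - strand): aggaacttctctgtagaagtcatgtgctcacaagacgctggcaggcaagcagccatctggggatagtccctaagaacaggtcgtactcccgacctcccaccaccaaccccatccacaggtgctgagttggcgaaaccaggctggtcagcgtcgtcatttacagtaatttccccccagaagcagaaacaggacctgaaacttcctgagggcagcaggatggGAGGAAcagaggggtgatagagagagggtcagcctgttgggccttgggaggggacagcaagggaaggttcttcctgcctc
C1qc (chr4:136892865-136893164, - strand): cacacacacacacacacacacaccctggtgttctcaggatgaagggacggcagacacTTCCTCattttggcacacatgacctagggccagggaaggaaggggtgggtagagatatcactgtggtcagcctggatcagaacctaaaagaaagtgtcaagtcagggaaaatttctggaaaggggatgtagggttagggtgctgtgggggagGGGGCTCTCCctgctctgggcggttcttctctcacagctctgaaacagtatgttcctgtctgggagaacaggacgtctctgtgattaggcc
B2m (chr2:122147437-122147736, + strand): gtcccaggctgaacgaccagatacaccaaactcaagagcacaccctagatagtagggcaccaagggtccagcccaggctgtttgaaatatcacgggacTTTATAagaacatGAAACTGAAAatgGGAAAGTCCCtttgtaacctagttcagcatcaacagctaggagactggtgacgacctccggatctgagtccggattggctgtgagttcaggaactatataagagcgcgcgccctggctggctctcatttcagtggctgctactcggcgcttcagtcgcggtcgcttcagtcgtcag
H2-D1 (chr17:35262844-35263143, + strand): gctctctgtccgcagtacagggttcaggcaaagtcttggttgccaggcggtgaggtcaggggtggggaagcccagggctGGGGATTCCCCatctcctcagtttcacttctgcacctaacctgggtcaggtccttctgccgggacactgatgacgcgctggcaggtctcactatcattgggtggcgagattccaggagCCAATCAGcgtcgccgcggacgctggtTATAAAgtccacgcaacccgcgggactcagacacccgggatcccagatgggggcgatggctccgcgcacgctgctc
H2-Aa (chr17:34287774-34288073, - strand): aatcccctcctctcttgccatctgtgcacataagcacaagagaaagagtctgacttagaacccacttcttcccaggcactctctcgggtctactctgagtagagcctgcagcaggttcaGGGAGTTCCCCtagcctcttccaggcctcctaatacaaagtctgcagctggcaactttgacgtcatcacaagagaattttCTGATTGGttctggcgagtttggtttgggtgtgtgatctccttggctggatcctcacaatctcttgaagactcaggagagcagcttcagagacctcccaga
The Y box was found in H2-Aa, from 51 to 44 bases upstream of the start, in H2-Eb1, and on the opposite strand in H2-D1, against 4.10% of all 32851 promoter windows. An NF-kB match was found in C1qc, B2m, H2-D1 and H2-Aa, against 4.51% of all windows. The interferon half-sites were found in B2m, against 3.44%. The PU.1 core, a motif of myeloid genes, was found in C1qb and C1qc, against 28.3%. The letters of the TATA box were found in B2m, H2-D1 and C3, against 13.6%. They lay from 26 to 21 bases upstream of the start in H2-D1. In B2m they lay from 152 to 147 bases upstream on the opposite strand, and in C3 downstream of the start. C1qb, C1qc and C1qa lie next to each other on the minus strand of chromosome 4, between 136880129 and 136898803 in GRCm38 (GENCODE M21). H2-Ab1, H2-Aa, H2-Eb1 and H2-D1 lie on chromosome 17 between 34257689 and 35267499, C3 lies apart on the same chromosome (57203970 to 57228136), and B2m lies on chromosome 2 (122147686 to 122153083).

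The deposited values were normalised by the authors to nearly RPM (reads scaled to a common library total), and whole reads could be recovered from them: a library held from 8079912 to 9469214 reads at E14, from 2933026 to 8141105 at P30 and from 5322181 to 7379353 at P60. The shallowest was KO hippocampus replicate 3 at P30. The miR-146a gene had 1 read in 1 WT library and 0 in the other 51, and poly-A libraries do not measure a mature microRNA, so the genotype labels have no check in these data. Of 4 markers fixed for each region, all 4 hippocampal markers were higher in hippocampus than in frontal cortex at both ages, 3 of the 4 cortical markers were lower in hippocampus than in frontal cortex, and 2 of the 4 amygdala markers were higher in amygdala than in frontal cortex. In WT hippocampus replicate 3 at P30 the summed value of 6 choroid plexus markers was 5461 and that of 6 meningeal markers 668, against medians over the group of 163 and 155. In bulk tissue, fewer cells of a type and less RNA per cell cannot be told apart. Where nothing says that 2 libraries came from separate animals, p-values measure only the spread between these libraries.

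In WT cortex the members spanned a wide range of levels, and most were higher after birth than at E14. Per kilobase of exon, and on a common scale of RPM scaled by TMM, B2m was highest in P30 frontal cortex (140.2, range over the 4 libraries 106.7 to 192.5), followed by C1qb (26.9, 23.3 to 30.5), C1qa (15.5, 13.6 to 17.3) and C1qc (10.3, 9.30 to 12.1), whose library ranges did not overlap. H2-D1 came next at 4.91 (3.73 to 6.71) and Cd74 after it at 1.71 (0.945 to 2.77), again without overlap. H2-Ab1 (0.174), H2-Aa (0.173), H2-Eb1 (0.118) and C3 (0.0990) came last, with ranges that overlapped each other. The first 6 places were the same at P60. At E14 B2m (21.9) led, the ranges of C1qb (2.50, 1.66 to 3.43) and H2-D1 (1.49, 1.36 to 1.69) overlapped, and so did those of C1qc (1.03, 0.884 to 1.22) and C1qa (0.935, 0.638 to 1.14).

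**Figure D1:**
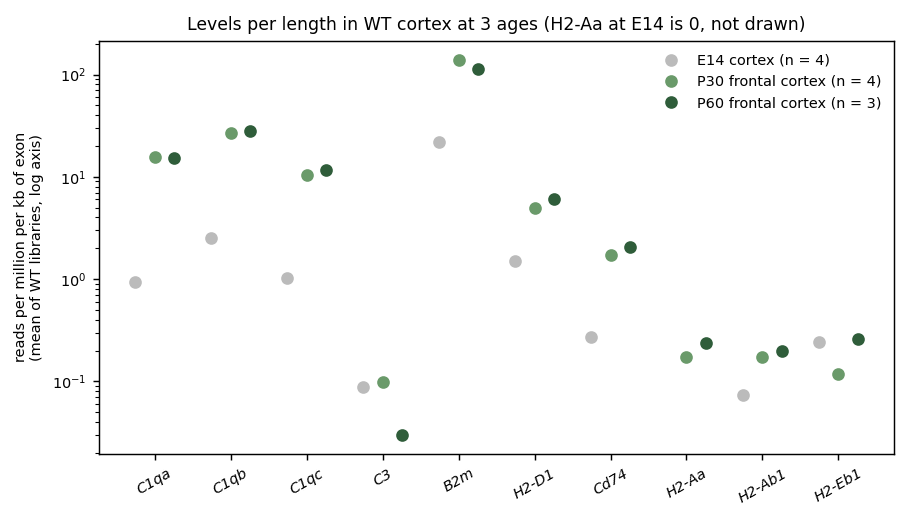
Mean level of each gene in WT cortex at 3 ages, in RPM per kb of exon on a log axis; each point is the mean of the WT libraries of that age. The C1q chains, B2m, H2-D1 and Cd74 stand higher at P30 and P60 than at E14, and the points of C3 and H2-Eb1 at the later ages lie near or below that of E14.

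All P30 WT frontal cortex libraries were above all E14 WT cortex libraries for 6 of the 10 members, C1qa, C1qb, C1qc, B2m, H2-D1 and Cd74, where the same held for 34.8% of the 20844 genes that passed the filter at any age. C1qa was 0.972 ± 0.222 RPM at E14 (SD, n = 4) and 16.1 ± 1.65 at P30 (n = 4), a 16.6-fold difference. C1qb was 10.8-fold and C1qc 9.92-fold higher at P30. B2m was 6.41-fold, Cd74 6.38-fold and H2-D1 3.30-fold higher. P60 frontal cortex lay near P30, at 16.0 ± 2.61 for C1qa (n = 3) and 97.1 ± 5.39 for B2m. Without TMM these folds were lower by a common shift of 0.28 on the log2 scale, C1qa standing at 13.7-fold and H2-D1 at 2.71-fold, and the same count of members was above. C3 was 1.12-fold at P30 with TMM and 0.926-fold without, so that its direction depended on the scaling, and H2-Eb1 was 0.486-fold at P30. H2-Aa had 0 reads in the 4 WT E14 libraries. Against a floor of 3 reads over that group (0.0824 RPM), its 0.599 RPM at P30 stood at 7.27-fold, both from pooled reads without TMM. That P30 value rests on 15 reads, with 1 of the 4 libraries at 0. Age, region name and table cannot be told apart here, since E14 cortex and postnatal frontal cortex were each dissected and normalised on their own, and these levels carry no test.

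**Figure D2:**
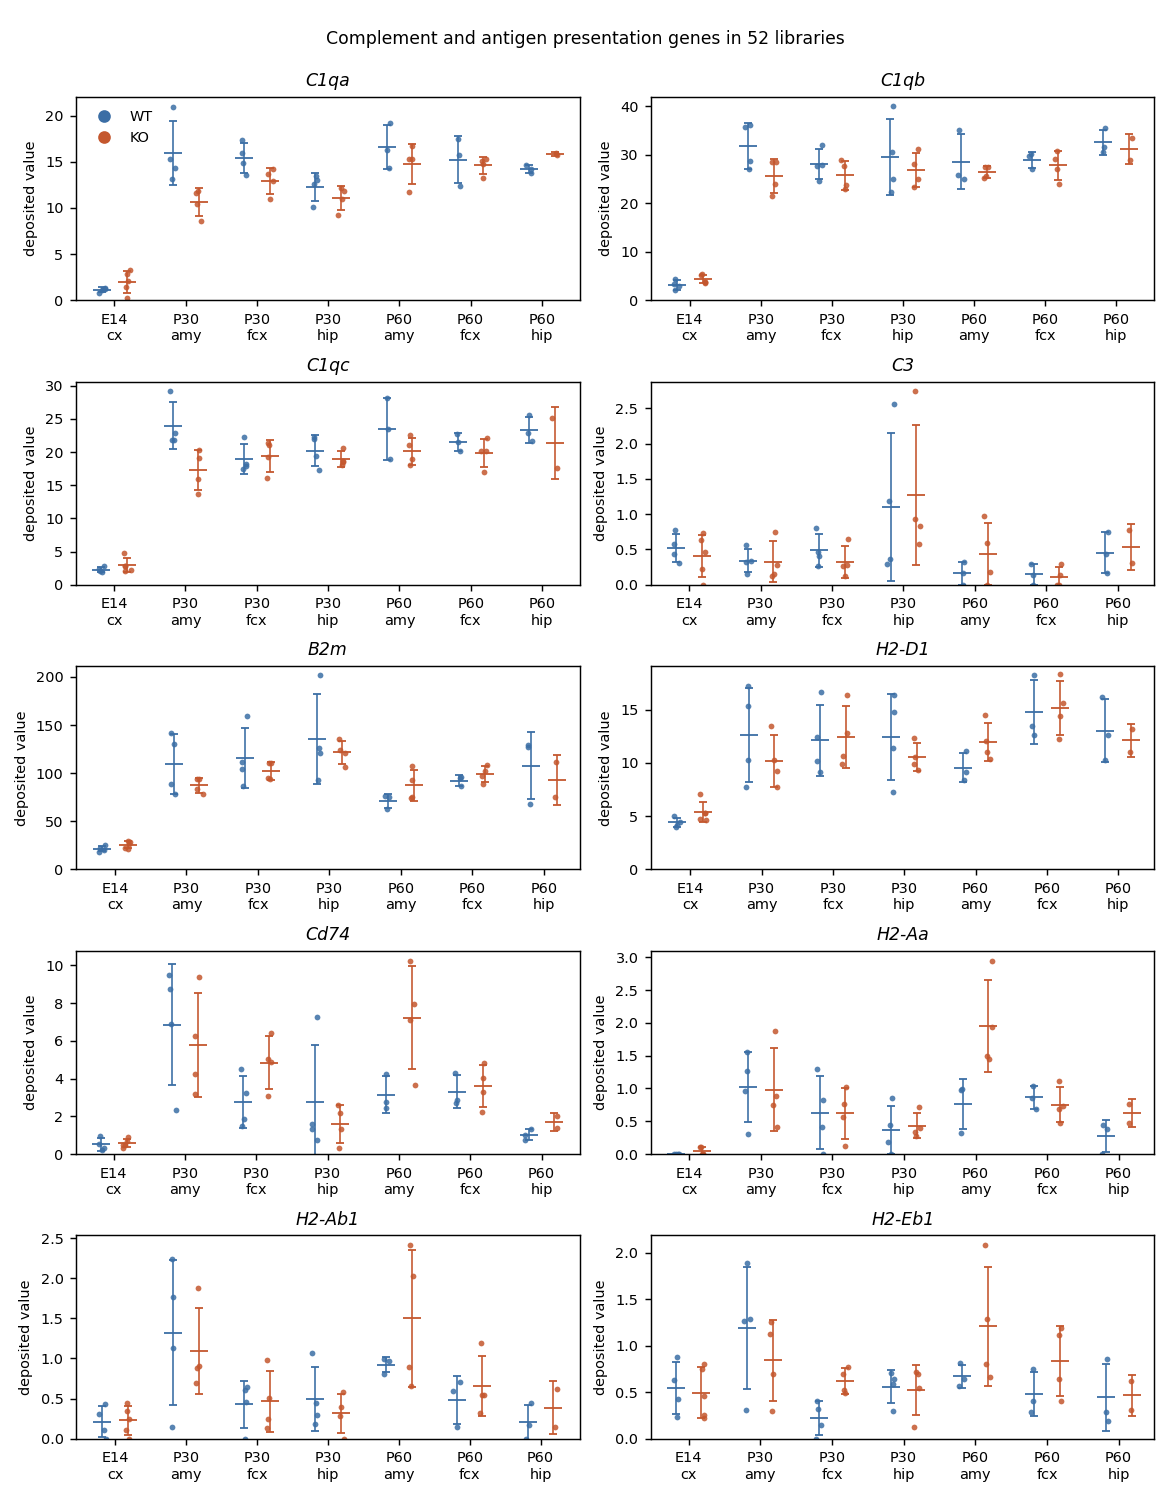
Deposited value (close to RPM) of each gene in every library, by age and region (cx, cortex; amy, amygdala; fcx, frontal cortex; hip, hippocampus); points are libraries, bars the mean ± SD, blue WT and red KO. KO and WT overlap in most panels, and the exceptions include C1qa and C1qc in P30 amygdala and H2-Aa in P60 amygdala.

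The first question was whether loss of miR-146a changed these genes. No member passed the test in any of the 7 KO against WT comparisons (limma on log2(value + 1), Benjamini-Hochberg adjusted over all genes tested, threshold 0.05), and none did with limma voom on the recovered reads. At an unadjusted p under 0.05 there were 3 members in P30 amygdala, where 9.82% of all genes had such a p. In P60 amygdala, where 4.07% of all genes had one, Cd74 did. H2-Aa did too but is not counted, because of how it passed the filter described next. The other 5 settings had 0. The members tested, those that passed a filter on low values, numbered 5 at E14 (the C1q chains, B2m and H2-D1), 6 at P30 (Cd74 also) and 8 at P60 (H2-Aa and H2-Ab1 also), and C3 and H2-Eb1 were too low everywhere. At P60 H2-Aa passed the filter only through KO amygdala replicates 1 and 2 and H2-Ab1 only through KO amygdala replicates 2 and 3, so values are given for these genes and their calls in the filtered fit are not used. Few genes of any kind were called: 0.0490% of all genes tested in E14 cortex, 0.0263% in P30 amygdala, 0.0158% in P30 frontal cortex, 0.0316% in P30 hippocampus, 0.0208% in P60 amygdala, 0.0312% in P60 frontal cortex and 0.0208% in P60 hippocampus.

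In the P30 amygdala the C1q chains were lower in KO libraries without passing that test. C1qa stood at 8.56, 10.39, 11.89 and 11.66 in the 4 KO libraries and at 15.34, 14.33, 21.00 and 13.17 in the 4 WT libraries. Every KO library was below every WT library. The means were 10.6 ± 1.53 and 16.0 ± 3.48 (SD, n = 4 each), a log2 fold change of -0.53 (SE 0.135, limma adjusted p = 0.212, from 0.208 to 0.474 over its 17 alternatives). C1qc stood at 13.66, 20.28, 15.90 and 19.14 in KO and at 22.94, 21.88, 29.26 and 21.85 in WT. Here too no KO library reached the lowest WT library, and the log2 fold change was -0.46 (SE 0.122, limma adjusted p = 0.224). C1qb stood at 21.39, 28.54, 23.91 and 28.56 in KO and at 35.61, 26.97, 36.15 and 28.59 in WT. Its groups overlapped, with a log2 fold change of -0.30 (SE 0.144, limma adjusted p = 0.494). The lack of overlap seen for C1qa and C1qc, 2 of the 6 members tested, was found with KO below WT in 2.52% of all genes tested in this comparison.

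The other tested members of the P30 amygdala also had log2 fold changes below 0: -0.28 for B2m (SE 0.209), -0.25 for H2-D1 (SE 0.238) and -0.17 for Cd74 (SE 0.448), none past the threshold and all with overlapping groups. The median over the 6 members was -0.292, beside 0.000 over all genes tested, of which 49.9% were below 0. Other genes moved the same way in these libraries. All 6 microglial markers were below 0 in KO, 4 of them at an unadjusted p under 0.05 (Csf1r, P2ry12, Cx3cr1 and Tmem119), with a median of -0.288, and none was called. Their summed value was 153.7 to 193.7 in KO and 187.2 to 257.0 in WT, and no microglial marker was at 0. All 5 endothelial markers (median -0.35) and all 5 astrocyte markers (median -0.207) were below 0 as well. WT replicate 3 held the highest C1qa, C1qb and C1qc and also the highest summed microglial, endothelial (394), astrocyte (1553) and blood (31.1) markers of its group. Its summed amygdala markers were the lowest (81.08, against 214.6 to 293.0 in the other WT libraries), its summed cortical markers the highest (341.7, against at most 241.0) and its summed oligodendrocyte markers 6188, beside a group median of 2031. Without it the log2 fold changes were -0.40 for C1qa and -0.36 for C1qc. Of the 4 KO libraries 3 were from females, and of the 4 WT libraries 3 were from males, judged from sex-linked transcripts. With sex in the fit, C1qa stood at -0.53, C1qb at -0.26 and C1qc at -0.44, and Cd74 turned from -0.17 to 0.21, none of them called. The part of dissection, cell composition and sex in the difference was not tested further.

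In the frontal cortex and hippocampus of the same age the C1q differences were smaller in size, and none was called. In P30 frontal cortex C1qa was 12.9 ± 1.43 in KO and 15.4 ± 1.63 in WT (SD, n = 4 each), a log2 fold change of -0.24 (SE 0.135). C1qc was 19.5 ± 2.40 and 19 ± 2.22, a log2 fold change of 0.03 (SE 0.122). Cd74 stood at 0.67 (SE 0.448) there, its values being 3.05, 5.03, 4.87 and 6.43 in KO and 4.49, 1.5, 1.84 and 3.22 in WT. In P30 hippocampus all 6 members lay between -0.33 and -0.08. The difference between the KO effect in amygdala and in frontal cortex, tested as an interaction, was -0.49 for C1qc (SE 0.173, limma adjusted p = 0.999) and -0.30 for C1qa (SE 0.190). Against hippocampus it was -0.39 for C1qa and -0.38 for C1qc (limma adjusted p = 0.802 and 0.798). No member passed in any of the 6 interaction tests, in which 0.0% of all genes were called and in which 1, 2, 2, 0, 0 and 0 members had an unadjusted p under 0.05 (amygdala minus frontal cortex at P30 and at P60, amygdala minus hippocampus at P30 and at P60, and hippocampus minus frontal cortex at P30 and at P60). Of all genes tested, 3.36%, 3.14%, 6.14%, 2.45%, 4.96% and 1.95% had such a p, in the same order. The limma voom fit also called 0 members in these 6 tests. The 2 in amygdala minus frontal cortex at P60 were Cd74 and H2-Aa. H2-Aa had entered that test only through KO amygdala libraries, so its p is a description.

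**Figure D3:**
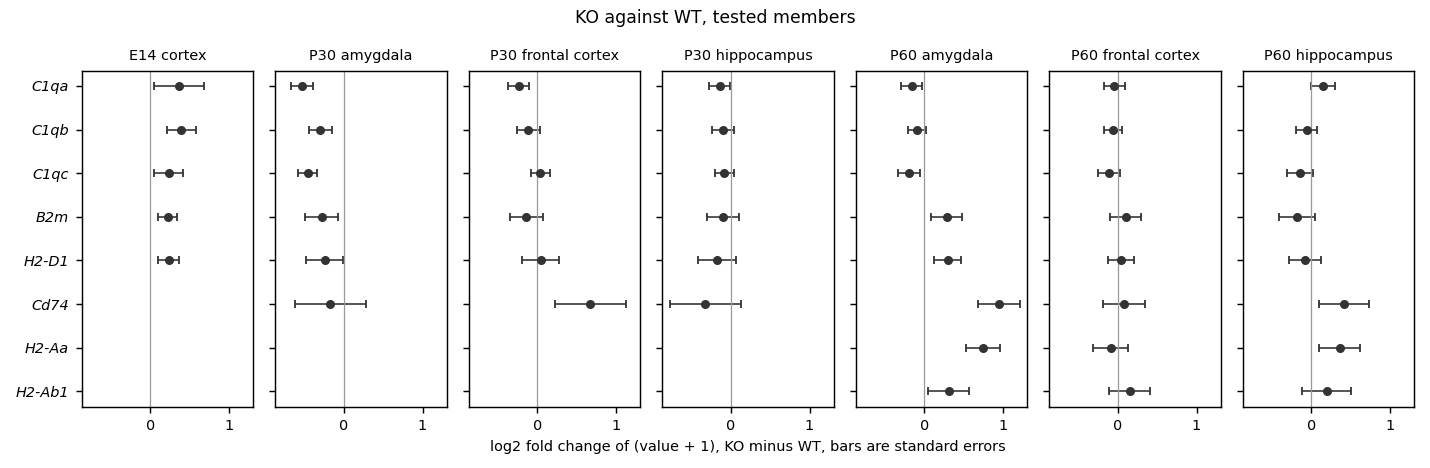
Log2 fold change of (value + 1), KO minus WT, with its standard error, for each member tested in each of the 7 settings. In P30 amygdala all 6 lie below 0, led by C1qa at -0.53, and in P60 amygdala Cd74 lies at 0.95.

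At E14 all 5 tested members lay above 0 and none passed. C1qb stood at 3.77, 3.56, 3.81, 5.42 and 5.27 in the KO libraries and at 4.38, 2.86, 2.04 and 3.23 in WT. The groups overlapped, with a log2 fold change of 0.39 (SE 0.182, limma adjusted p = 1). C1qa ranged from 0.23 to 3.25 in KO, which is 2 to 29 reads, and from 0.75 to 1.36 in WT. B2m was 25.4 ± 3.68 (SD, n = 5) and 21.6 ± 2.85 (n = 4), and H2-D1 was 5.40 ± 0.973 and 4.41 ± 0.455. The median over the 5 members was 0.234, beside 0.006 over all genes tested.

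In the P60 amygdala the class II gene Cd74 had an unadjusted p under 0.05, with a higher mean in KO, and was not called. Cd74 was at 10.24, 7.93, 7.08 and 3.64 in KO and at 4.26, 2.42 and 2.74 in WT. Of the 4 KO libraries 3 were above all WT libraries, and KO replicate 4 lay within their range. The means were 7.22 ± 2.74 (SD, n = 4) and 3.14 ± 0.983 (n = 3), a log2 fold change of 0.95 (SE 0.266, limma adjusted p = 0.999). H2-Aa was at 1.93, 2.95, 1.45 and 1.49 in KO and at 0.99, 0.97 and 0.32 in WT. Its groups did not overlap, as was so for 2.40% of all genes with KO above WT in this comparison. Since 2 of these KO libraries are what brought H2-Aa into the test, its values are a description, and with no filter its log2 fold change of 0.75 was not called (limma adjusted p = 0.742). Behind these values stand 9 to 16 reads of H2-Aa in a KO library and 2 to 7 in a WT library. With same-numbered KO and WT libraries as blocks, Cd74 stood at 1.20 with a limma adjusted p of 0.0639, the smallest over its 14 alternatives, which reached 1.

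H2-Ab1 in the same tissue was 1.5 ± 0.854 in KO and 0.923 ± 0.0987 in WT, and H2-Eb1, not tested, 1.21 ± 0.641 and 0.673 ± 0.123. The C1q chains lay on the other side, at -0.16 for C1qa, -0.09 for C1qb and -0.20 for C1qc, none called. The summed border macrophage markers ranged from 10.92 to 28.04 in KO and from 15.95 to 19.03 in WT, with no marker at 0, and the meningeal markers from 175 to 472 and from 145 to 296. KO replicates 1 and 2, highest in Cd74, were also highest in both sums (25.99 and 28.04 for border macrophages, 358 and 472 for meninges). The part of these cells in the Cd74 values was not tested. The interaction of KO with region, amygdala minus frontal cortex, was 0.87 for Cd74 (SE 0.377, limma adjusted p = 1). In P60 frontal cortex the 8 members lay between -0.11 and 0.15.

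P60 hippocampus had only 2 KO libraries. C1qa (16.00 and 15.70 in KO, 14.23, 14.70 and 13.76 in WT), Cd74 (2.02 and 1.38 against 0.73, 1.32 and 1.03) and H2-Aa (0.47 and 0.77 against 0.44, 0.38 and 0.00) did not overlap, all 3 with KO above WT, as was so for 6.15% of all genes tested there. The log2 fold changes of C1qa and Cd74 were 0.15 and 0.41, neither called. H2-Eb1 in P30 frontal cortex also had every KO library above every WT library (0.49 to 0.77 against 0.00 to 0.41), on 4 to 6 reads against 0 to 2. It was too low to test, and no share of all genes is set beside it.

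The second question was how the members differ between regions, KO and WT libraries together and genotype in the fit. Class II differed most plainly: over both genotypes together, the mean of Cd74 was highest in amygdala and lowest in hippocampus at both ages. The pooled means of H2-Aa, H2-Ab1 and H2-Eb1 had that order too, except that H2-Eb1 at P30 was lowest in frontal cortex (0.420, against 1.02 in amygdala and 0.541 in hippocampus). In WT libraries alone, Cd74 and H2-Aa were not higher in amygdala than in frontal cortex at P60. At P30 Cd74 ranged from 2.31 to 9.47 in amygdala (median 6.60, n = 8), from 1.5 to 6.43 in frontal cortex (median 3.86) and from 0.34 to 7.27 in hippocampus (median 1.48). In hippocampus 7 libraries were at or below 2.61, and WT replicate 3, the library with the high choroid plexus and meningeal markers, was the highest. Amygdala exceeded hippocampus by 1.31 on the log2 scale (SE 0.317, limma adjusted p = 0.00195), a 2.90-fold difference of means. In this comparison 2 of the 6 tested members were called, beside 44.1% of all genes. Without WT hippocampus replicate 3 the Cd74 difference was 1.55, and without the WT libraries numbered 3 in all 3 regions it was 1.46. Hippocampus minus frontal cortex stood at -0.73 for Cd74 (SE 0.317, limma adjusted p = 0.0707), and without WT hippocampus replicate 3 it was called (-0.96, adjusted p = 0.00656, within a range of 0.00656 to 0.205 over its 25 alternatives). With all libraries kept it was also called with same-numbered libraries of a genotype as blocks, with sex in the fit and with pseudocount 0.1 (limma adjusted p = 0.0165, 0.0310 and 0.0494).

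At P60 the means of the class II genes had the same order. Cd74 ranged from 2.42 to 10.2 in amygdala (median 4.26, n = 7), from 2.21 to 4.84 in frontal cortex (median 3.28, n = 7) and from 0.73 to 2.02 in hippocampus (median 1.32, n = 5). Every hippocampal library was below every library of the other regions, and the share of all genes separated in this way was not counted. Amygdala exceeded hippocampus by 1.28 (SE 0.208, limma adjusted p = 0.000117) and hippocampus was below frontal cortex by 0.91 (-0.91, SE 0.208, limma adjusted p = 0.00215). H2-Aa was 1.44 ± 0.837 in amygdala (SD, n = 7) and 0.412 ± 0.275 in hippocampus (n = 5), and H2-Ab1 was 1.25 ± 0.680 and 0.276 ± 0.249. Each had passed the filter only through 2 KO amygdala libraries. In the fit with no filter, for which they were not selected in this way, amygdala minus hippocampus was 0.65 for H2-Aa (limma adjusted p = 0.00819) and 0.75 for H2-Ab1 (limma adjusted p = 0.00868), on a few reads a library. H2-Eb1, not tested, had the same order of means, 0.979, 0.686 and 0.454. The calls of H2-Aa and H2-Ab1 in the filtered fit are not counted. Cd74 was the only other tested member called for amygdala minus hippocampus, beside 29.0% of all genes. For hippocampus minus frontal cortex Cd74 alone was called, beside 32.8%. In amygdala minus frontal cortex at P60, Cd74 stood at 0.37 (SE 0.188, limma adjusted p = 0.145) and was called without KO amygdala replicate 4 (0.50, adjusted p = 0.0297, within a range of 0.0297 to 0.320 over its 21 alternatives).

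**Figure D4:**
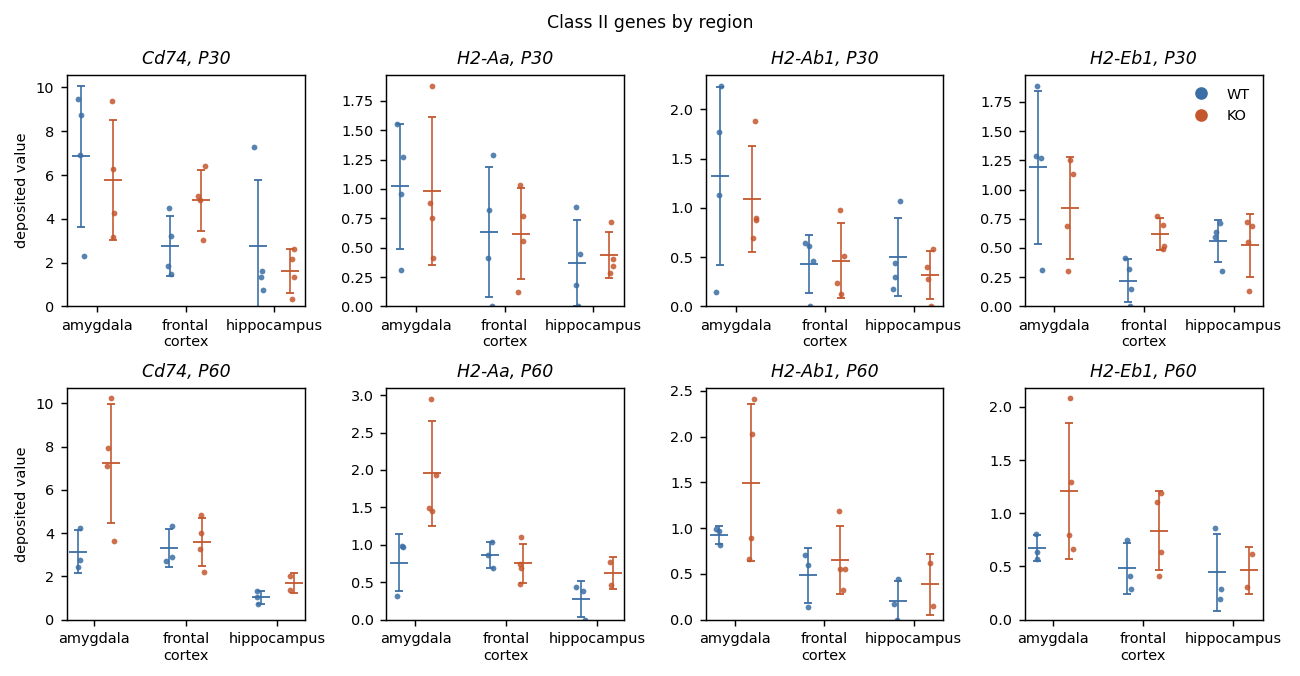
Deposited values of the 4 class II genes in each library by region at P30 (top) and P60 (bottom); points are libraries, bars the mean ± SD, blue WT and red KO. Amygdala has the highest group means for Cd74 at P30 and hippocampus the lowest at P60, where no hippocampal library exceeds 2.02.

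Markers of border macrophages and meninges had medians that were higher in amygdala than in hippocampus, the direction of class II. For amygdala minus hippocampus the median over the border macrophage markers tested was 0.633 at P30 (3 of 5 called, all higher) and 0.646 at P60 (2 of 4 called, both higher). Over the 6 meningeal markers it was 0.709 at P30 (3 called) and 1.674 at P60 (all 6 called). Of all genes tested, 44.1% were called in this comparison at P30 and 29.0% at P60. In amygdala of WT mice the summed border macrophage markers ranged from 18.5 to 26.7 at P30, against 10.7 to 20.3 in hippocampus, with no marker at 0 in either group. Choroid plexus markers lay the other way, with a median of -1.302 at P30 (0 of 6 above 0, 2 called lower) and -0.507 at P60 (1 of 5 above 0, 1 called lower). Microglial markers differed less, with medians of 0.135 and -0.032. Of 9 markers of dendritic cells, B cells and T cells, 2 were high enough to test. The part of these cells in the class II difference was not tested.

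H2-Ab1 was too low to test at P30. Its values were 0.15 to 2.24 in amygdala, 0.00 to 0.98 in frontal cortex and 0.00 to 1.07 in hippocampus. No member passed in amygdala minus frontal cortex at P30, where 37.3% of all genes were called, at an unadjusted p under 0.05 the count was 0, and limma voom called 0.

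Of the class I genes, B2m was lower in amygdala than in hippocampus at P30 and H2-D1 was lower in amygdala than in frontal cortex at P60. Amygdala minus hippocampus was -0.02 for H2-D1 at P30 and -0.21 at P60, neither called. B2m in P30 amygdala was 98.6 ± 24.0 (SD, n = 8), against 128.5 ± 32.4 in hippocampus, a log2 difference of -0.38 (SE 0.148, limma adjusted p = 0.0434). In the main fit the call was near the threshold, and over its 25 alternatives the limma adjusted p ran from 0.000134 to 0.101. The call was lost in 11 of the 16 fits that left out 1 library, with log2 differences from -0.46 to -0.27 and adjusted p up to 0.101. The libraries whose omission ended it were KO amygdala replicates 1, 2 and 4, WT amygdala replicates 2 and 4, KO hippocampus replicates 2, 3 and 4 and WT hippocampus replicates 1, 2 and 3. At P60 B2m was 80.2 ± 14.7 in amygdala, 96.2 ± 7.56 in frontal cortex and 102.0 ± 29.0 in hippocampus. Its difference between amygdala and frontal cortex was -0.29 (SE 0.138, limma adjusted p = 0.128), and with same-numbered libraries of a genotype as blocks the same difference had an adjusted p of 0.0268, within a range of 0.0112 to 0.249 over its 21 alternatives. Between amygdala and hippocampus at P60 it was -0.31 (SE 0.152, limma adjusted p = 0.140), and it was called without WT hippocampus replicate 1 (-0.46, adjusted p = 0.00320, within a range of 0.00320 to 0.541 over its 19 alternatives). H2-D1 was called in amygdala minus frontal cortex at P60: 10.9 ± 1.99 in amygdala against 15 ± 2.51 in frontal cortex (SD, n = 7 each), a log2 difference of -0.45 (SE 0.119, limma adjusted p = 0.00755). It was the 1 member of 8 called there, beside 31.4% of all genes, and with the blocks the count was 2.

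The C1q chains were close to level across the regions. C1qb at P30 was 28.7 ± 5.11 in amygdala, 26.9 ± 3.04 in frontal cortex and 28.2 ± 5.77 in hippocampus (SD, n = 8 each), and C1qc was 20.6 ± 4.72, 19.2 ± 2.16 and 19.6 ± 1.84. C1qa was lower in hippocampus (11.7 ± 1.46) than in frontal cortex (14.2 ± 1.94), a log2 difference of -0.26 (SE 0.0952, limma adjusted p = 0.0302). It was the 1 called of 6, beside 43.3% of all genes. Leaving out 1 library ended the call in 6 of 16 fits (KO frontal cortex replicates 1 and 3, WT frontal cortex replicates 2 and 3, KO hippocampus replicate 3 and WT hippocampus replicate 4), with log2 differences from -0.29 to -0.22 and adjusted p up to 0.0739, and limma voom did not call it (adjusted p = 0.0615). Of the 6 microglial markers 5 were also called lower in hippocampus than in frontal cortex at P30, with a median of -0.244. At P60 C1qa was 14.9 ± 0.953 in hippocampus and 14.9 ± 1.65 in frontal cortex, a log2 difference of 0.02 (SE 0.102). C1qb at P60 was 27.4 ± 3.58 in amygdala and 32.0 ± 2.54 in hippocampus, a log2 difference of -0.21 (SE 0.0885, limma adjusted p = 0.0819, from 0.0101 to 0.275 over its 19 alternatives), and it was called without WT amygdala replicate 3 (-0.29) and with limma voom (-0.29).

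C3 was near the limit of detection. It had from 0 to 12 reads in a library, and its highest values were 2.74 (8 reads) in KO and 2.56 (12 reads) in WT P30 hippocampus, in each case replicate 3. At P30 its mean was 1.19 ± 0.951 in hippocampus, 0.407 ± 0.228 in frontal cortex and 0.335 ± 0.219 in amygdala (SD, n = 8 each), and it was too low to test. At P60 it was at 0 in 3 of 7 frontal cortex and 2 of 7 amygdala libraries.

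Pairs of members were then compared from library to library at P30, after the genotype means were removed. Of 12 pairs in each of 3 regions, 33 of the 36 Pearson correlations were above 0. None passed after Benjamini-Hochberg adjustment over the 36 (exact two-sided permutation within genotype, 576 arrangements, smallest possible p 0.00174), and 9 had an unadjusted p under 0.05 with Pearson's r and 6 with Spearman's rho. B2m and H2-D1, light and heavy chain of class I, had the steadiest relation. Their r was 0.892 in amygdala (rho 0.857, exact permutation p = 0.0278 and 0.0556), 0.825 in frontal cortex (rho 0.881, exact permutation p = 0.0226 and 0.0174) and 0.872 in hippocampus (rho 0.762, exact permutation p = 0.0451 and 0.0556), over 8 libraries each, with adjusted p from 0.156 to 0.205. Without the 2 libraries farthest from the median of B2m the r was 0.839, 0.895 and 0.590.

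For B2m in both genotypes, and for H2-D1 in KO, the highest P30 library carried the same number in every region. The WT libraries numbered 1 held the highest WT B2m in amygdala (141.2), frontal cortex (159.8) and hippocampus (201.9), where the other WT libraries lay between 77.8 and 130.6. The KO libraries numbered 3 held the highest KO B2m (94.27, 111.0 and 135.1) and the highest KO H2-D1 (13.52, 16.41 and 12.34) in the 3 regions. The highest WT H2-D1 was in replicate 3 in amygdala (17.21) and in replicate 1 in frontal cortex (16.71) and hippocampus (16.43), and at P60 neither gene had its highest library at 1 shared number in either genotype. The labels do not say whether a number marks 1 animal. Judged from sex-linked transcripts, same-numbered libraries of a genotype had the same sex in every region, at P30 and at P60. The main fit took them as separate replicates, and whether they share an animal was not tested. Without the WT libraries numbered 1 the KO minus WT difference of B2m in P30 amygdala was -0.15, and with them it was -0.28.

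**Figure D5:**
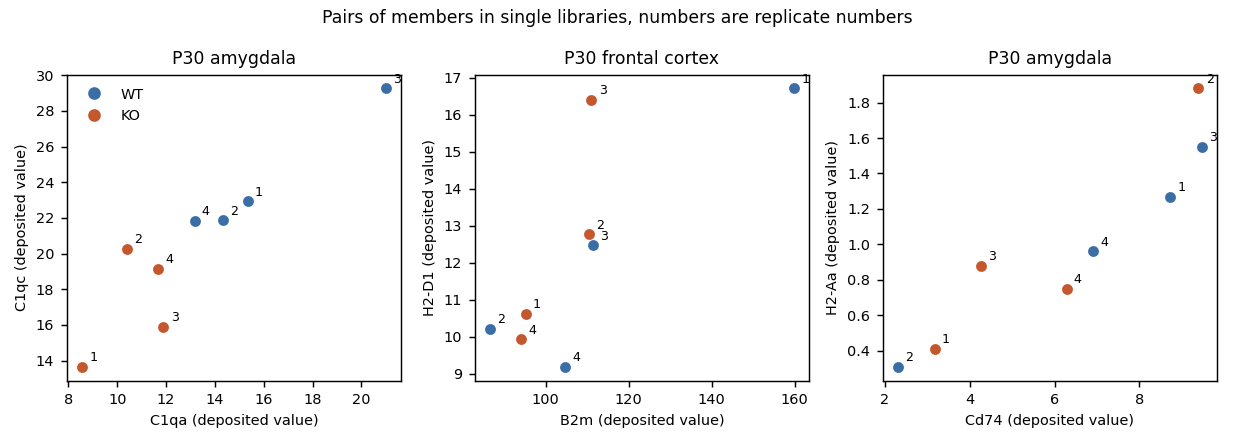
Values of C1qa and C1qc in P30 amygdala, B2m and H2-D1 in P30 frontal cortex, and Cd74 and H2-Aa in P30 amygdala; each point is a library with its replicate number, blue WT and red KO. WT replicate 3 is highest for both C1q chains, and WT replicate 1 for both class I genes.

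Among class II genes Cd74 and H2-Aa went together in amygdala, with r 0.937 (rho 0.929, exact permutation p = 0.00521 and 0.0104, adjusted p = 0.167 and 0.156), and with r 0.828 without the 2 libraries farthest from the median of Cd74. In frontal cortex the same pair had r 0.003, and in hippocampus 0.733. H2-Ab1 and H2-Eb1 had r 0.810 in amygdala, 0.817 in frontal cortex and -0.034 in hippocampus, on values of a few reads. The C1q chains in amygdala had r 0.680 for C1qa with C1qb, 0.755 for C1qa with C1qc and 0.858 for C1qb with C1qc. Without the 2 libraries farthest from the median of the first gene, r was 0.458, 0.392 and 0.777. In frontal cortex the same pairs had r 0.185, 0.151 and 0.563. In hippocampus r was 0.599 for C1qa with C1qb, 0.763 for C1qa with C1qc and 0.633 for C1qb with C1qc. Without the 2 farthest libraries these were -0.111, 0.770 and -0.006. The r of C1qb with C1qa and with C1qc there so rested on those libraries, and that of C1qa with C1qc did not. Between the groups, C1qa with Cd74 had r 0.452, -0.505 and 0.355 in amygdala, frontal cortex and hippocampus, and C1qa with B2m 0.606, -0.172 and 0.317.

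Outside the 10, the genes most like the mean of the C1q chains over the 24 P30 libraries (deviations from group means, out of 18970 genes) were Peli2 (r = 0.834), Aspg (0.819), Mir138-1 (0.812), 1700125G02Rik (0.779) and Ppp1r16b (0.777). Over the 19 P60 libraries the same genes had r 0.483, -0.417, 0.308, 0.368 and 0.415. For the mean of the 4 class II genes they were Baz2a (0.856), Pecam1 (0.856), Gnai2 (0.855), Pla2r1 (0.851) and Gm42898 (0.846) at P30, and -0.187, 0.257, -0.020, -0.095 and 0.281 at P60. These are descriptions over libraries that share their depth and tissue composition, and every r at P60 was lower than at P30.

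The rest of both pathways was described from 46 other complement genes and 41 other antigen presentation genes. No gene of either list passed between KO and WT in any of the 7 settings with limma, and the lists had from 0 to 4 genes each at an unadjusted p under 0.05. In P30 amygdala 20 of the 30 tested complement genes were below 0 (median -0.106), and 3 had an unadjusted p under 0.05: the fourth component C4b at -0.56 (SE 0.173), the C5a receptor C5ar1 at -0.70 (SE 0.218) and the fluid-phase inhibitor Clu at -0.24 (SE 0.0927), with limma adjusted p of 0.294, 0.294 and 0.379. C4b was 10.2 ± 1.47 in KO and 15.7 ± 4.07 in WT (SD, n = 4 each). Of the 28 antigen presentation genes tested there, 23 were below 0 (median -0.174), and 3 had an unadjusted p under 0.05: the proteasome activator subunit Psme2 at -0.81, the class II processing protease Ctss at -0.36 and the protease Lgmn at -0.23. Of all genes tested there 9.82% had such a p, close to the share of both lists. In P60 amygdala, where 4.07% of all genes did, 1 gene of each list had such a p, the complement receptor subunit Itgam at 0.67 and the immunoproteasome subunit Psmb10 at 0.34.

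Between regions genes of both lists were called, in shares near or below those of all genes. For amygdala minus frontal cortex at P30, 13 of 30 complement genes were called, 9 higher and 4 lower, beside 37.3% of all genes. The 5 largest were Csmd3 (0.96), C1ra (-0.95), C4b (0.80), Serping1 (0.78) and C2 (0.57), where C1ra is a protease of the C1 complex, Serping1 its inhibitor, and Csmd3 a large membrane protein with complement control domains. Of 28 antigen presentation genes 6 were called, led by the proteasome activator subunit Psme1 (1.10), the non-classical class I gene H2-T23 (-0.78), the class II loading chain H2-DMa (0.56), Tapbpl (0.54) and Fcgrt (0.34). For amygdala minus hippocampus at P30, 13 of 30 and 9 of 28 were called, beside 44.1% of all genes, and H2-DMa, whose product works on the molecules that Cd74 chaperones, stood at 0.81 (SE 0.134). The same comparison at P60 called 9 of 31 and 6 of 29, beside 29.0% of all genes, among them the scavenger receptor Colec12 (1.10), C2 (0.70), Csmd3 (0.60) and Susd4 (-0.57), and Tapbpl (0.72), Tapbp (0.52), Psme1 (0.42), Psmb10 (0.33) and Rfxap (0.30). C4b was higher in hippocampus than in frontal cortex at P30 (0.78) and at P60 (1.24), while the C1q chains that act upstream of it differed by 0.26 or less in size.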

How the data were processed

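Poly-A RNA-seq of mouse brain gave 1 deposited table per age. The authors' deposited values were normalised by the authors to nearly RPM (library totals 945861 to 1039134). Whole reads were recovered from their steps (100% whole within 0.1 read) and used for depth, the filter and alternatives. The submitters' processing notes name limma, DESeq, edgeR and mm9, with no role. A gene was tested where at least 4, 4 and 2 libraries (E14, P30 and P60, the smallest group sizes) held the equivalent of 10 reads at median depth and 15 reads were found in all. The test was run with limma 3.58.1 (R 4.3.3) on log2(value + 1), 1 fit per age over all groups, adjusted by Benjamini-Hochberg; the fits were tested on simulated data. IDs were named from GENCODE M21 (48144 of 48526 found).

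All 10 members are named. Other pathway genes called are named, up to 5 a comparison by size (1 is not reported here), and those with an unadjusted p under 0.05 between KO and WT in amygdala were added after their values were seen. Members and lists were chosen with earlier results of these data known. Same-numbered libraries deviated together in P60 amygdala (KO with WT: r 0.265, 0.210 and 0.321) and between P60 amygdala and frontal cortex of a genotype (r 0.110 to 0.214). That pairing comes from the data and not from the labels. In P60 hippocampus only 2 pairs exist (r 0.624 and 0.497), and amygdala with hippocampus at P60 reached r 0.103 to 0.162 in WT and 0.015 and 0.090 in KO, so neither was taken as paired. The tables held 0 columns of other samples.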

Additional observations from a re-analysis of the deposited data

Results flagged for a closer look

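Among 100 combinations of a member with a group of 4 or 5 libraries, 4 held a library far from the others of its group, where chance gives about 1 in 20. H2-D1 was 7.06 in KO E14 cortex replicate 3, the next library being at 5.27. C1qc was 29.26 in WT P30 amygdala replicate 3, the next being at 22.94. C3 was 2.74 in KO P30 hippocampus replicate 3, the shallowest library, the next being at 0.93, a difference of a few reads. Cd74 was 7.27 in WT P30 hippocampus replicate 3, the next being at 1.61. That library also held the highest choroid plexus sum (5461) and meningeal sum (668) of its group. The part of those tissues in the Cd74 value was not tested.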

How the results depend on the processing

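Alternatives were another pseudocount, no filter, TMM scaling, limma voom, a sex covariate, a replicate block, only the groups compared and leaving out each library; leaving out the WT libraries numbered 1 or 3 in all 3 regions and voom were chosen after seeing the data. The planned count tests were not run. No member was called between KO and WT in any of 690 alternatives. Of 1600 alternatives over 89 results of a member in a comparison, 23 lost a call, 17 gained one, none reversed a call, and 77 changed the sign of a value not called. Members called at P30 in amygdala minus frontal cortex (0) numbered 2 without the filter, 1 without WT number 1, and 0 to 1 when 1 library was left out. In hippocampus minus frontal cortex (1) they numbered 2 with pseudocount 0.1, 0 with voom, 2 with the sex covariate, 3 with the replicate block, 2 without WT number 3, and 0 to 2 when 1 library was left out. In amygdala minus hippocampus (2) they numbered 1 with only the groups compared, 1 without WT number 3, and 1 to 3 when 1 library was left out. There, with no filter, B2m lost its call (adjusted p = 0.0638) while C3 (-0.62, adjusted p = 0.0138) and H2-Ab1 (0.61, adjusted p = 0.0158) had one, and H2-Ab1 entered and was called without WT number 1 (adjusted p = 0.0439) and in 13 fits that left out 1 library. At P60 amygdala minus frontal cortex (1) gave 2 with the replicate block, 2 with only the groups compared, and 1 to 3 when 1 library was left out. Amygdala minus hippocampus (3, with H2-Aa and H2-Ab1 among them) gave 1 to 4 when 1 library was left out. It gave 1 without KO amygdala replicate 2, where neither of these 2 genes passed the filter. The median KO minus WT of the members in P60 amygdala was 0.288, with H2-Aa and H2-Ab1 among them. It was 0.095 with only the groups compared and 0.070 to 0.329 when 1 library was left out. In P60 hippocampus (0.042) it was 0.101 with the replicate block, -0.079 with only the groups compared, and 0.018 to 0.133 when 1 library was left out. Counts and medians were taken over the members that passed the filter in each fit. With only the groups compared, H2-Aa and H2-Ab1 failed it in P60 amygdala, and Cd74, H2-Aa and H2-Ab1 in P60 hippocampus. Those 2 medians are therefore over fewer members than the main ones. The cause of the other changes was not tested. Class II and C3 rest on a few reads a library, which limits their precision.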
